A study of Mus musculus with 5 samples.

Results

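Expression of 6 genes of oligodendrocyte precursors, Pdgfra, Ptprz1, Cspg4, Cspg5, Vcan and Serpine2, was followed from OPCs (oligodendrocyte precursor cells) through committed and newly formed cells (COP/NFOL) and the first myelin-forming label (MFOL1) to mature oligodendrocytes (MOL). They are 6 of the 11733 genes of the matrix, and were taken by name. All 6 were rows of the matrix and all are described. The cells came from the corpus callosum of P60 mice (mixed CBA and C57BL/6 background) carrying Emx1::Cre, Sox10::Cre and a reporter that gives TdTom in cells of dorsal forebrain origin and GFP in the other oligodendrocyte lineage cells, which are of ventral origin. Emx1::Cre is active in the dorsal forebrain, and the cells of both colours came from mice with the same alleles. Sox10::Cre is the name in the study's methods, whereas its results name the line Emx1::Cre-Sox10::GFP-TdTom. Tissue of 2 mice was pooled and sorted into 1 TdTom+ library of 1901 cells and 1 GFP+ library of 952 cells, and 3 spinal cord samples of the series were not analysed here. There was no replicate of either library, so no test was made, and the 95% intervals given cover counting error only.

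As background, OPCs divide in response to PDGF-A, which acts through the receptor tyrosine kinase PDGFRA, and lose that receptor as they commit to differentiate. Their surface and surroundings are rich in chondroitin sulfate proteoglycans, core proteins that carry long sulfated sugar chains. These include NG2 (Cspg4), neuroglycan C (Cspg5), the secreted hyaluronan-binding versican (Vcan) and the receptor phosphatase PTPRZ1 (Ptprz1), which binds pleiotrophin. Serpine2 encodes protease nexin-1, a secreted inhibitor of thrombin and plasminogen activators.

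Levels are UMIs (unique molecular identifiers, each standing for a captured RNA molecule) of the gene, summed over the cells of a label and library, per 1000000 UMIs of those cells (CPM). The labels were deposited by the authors and came from clustering of the same cells, which could use these genes. The levels across labels are therefore a description. OPC comprised 48 TdTom+ and 35 GFP+ cells, COP/NFOL 11 and 8, MFOL1 175 and 99, and the 7 MOL labels together 1450 and 730. The COP/NFOL cells were the most deeply sequenced of these, with a median of 8215 UMIs per TdTom+ cell and 8212 per GFP+ cell, against 2909 and 2837 in OPC and 3234.5 and 3246.5 in MOL. Of the COP/NFOL cells, 5 and 4 held more than 3000 genes in the matrix, the upper limit that the study states. Of 9 other OPC markers, 9 were highest in TdTom+ OPC and 8 in GFP+ OPC, since in the latter library Sox6 was highest in COP/NFOL. Of 8 COP/NFOL markers, 7 and 8 were highest in COP/NFOL, and Neu4 of the TdTom+ library was highest in OPC. The libraries shared 1 cell barcode.

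On mm10 the genes lie at chr5:75152292-75198215 (Pdgfra, plus strand), chr6:22875502-23052916 (Ptprz1, plus), chr9:56865033-56899870 (Cspg4, plus), chr9:110243783-110262576 (Cspg5, plus), chr13:89655312-89742509 (Vcan, minus) and chr1:79794197-79861180 (Serpine2, minus), by the GENCODE annotation. Pdgfra overlaps 3 other annotated genes, Vcan 2 and Cspg5 1, and none of these is a row of the matrix. The 250 bases before the RefSeq start (GRCm38.p6) were looked up for the 5 members that the promoter table holds, and are shown for Pdgfra, which was nearly gone in COP/NFOL, Ptprz1, which was partly retained, and Vcan, which was retained most. Motifs were searched on both strands in these and in all 32851 promoter windows of this length. The SOX core motif, ACAAAG, was present in 16.5% of all windows. The E-box motif, CAGCTG, was present in 13.0% of them. The motif of SP family factors, GGGCGG, was present in 32.7% of them. Capitals mark matches, and in the lines shown every match is of the SP motif on either strand.
Pdgfra promoter, chr5:75152001-75152250, plus strand: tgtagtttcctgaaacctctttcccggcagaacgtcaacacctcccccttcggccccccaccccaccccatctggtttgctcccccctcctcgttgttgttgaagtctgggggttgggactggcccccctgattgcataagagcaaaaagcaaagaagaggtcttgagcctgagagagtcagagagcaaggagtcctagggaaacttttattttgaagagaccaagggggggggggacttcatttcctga
Ptprz1 promoter, chr6:22875252-22875501, plus strand: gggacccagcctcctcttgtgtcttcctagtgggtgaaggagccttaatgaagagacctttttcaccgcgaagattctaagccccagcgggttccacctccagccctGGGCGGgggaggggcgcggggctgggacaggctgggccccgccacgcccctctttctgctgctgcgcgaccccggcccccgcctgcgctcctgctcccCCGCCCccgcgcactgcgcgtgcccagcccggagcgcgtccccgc
Vcan promoter, chr13:89742513-89742762, minus strand: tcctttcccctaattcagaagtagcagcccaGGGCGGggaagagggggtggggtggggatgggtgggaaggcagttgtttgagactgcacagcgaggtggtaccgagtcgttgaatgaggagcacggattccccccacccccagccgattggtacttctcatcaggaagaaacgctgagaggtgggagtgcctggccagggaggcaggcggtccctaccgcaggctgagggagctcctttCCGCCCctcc
The Pdgfra window held none of the 3 motifs and was 54.4% G or C. The Ptprz1 window held 2 SP motifs, 143 and 45 bases before the start, and was 71.6% G or C. The Vcan window held 2 SP motifs, 219 and 10 bases before the start, and was 62.4% G or C. The median over all windows was 52.4%. The Cspg4 window also held 2 SP motifs. The Serpine2 window held 6 SP motifs and 1 SOX core, and its RefSeq start lies 2515 bases inside the GENCODE gene.

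All 6 genes were at their highest in OPC in both libraries, although GFP+ Vcan reached 107% of its OPC level in COP/NFOL when only cells of 200 to 3000 genes were kept. OPC held 2.17% of all TdTom+ and 3.08% of all GFP+ UMIs. The same cells held between 80.1% (Serpine2) and 91.8% (Pdgfra) of each member's UMIs among TdTom+ cells, and between 68.8% (Vcan) and 98.6% (Pdgfra) among GFP+ cells. By MFOL1 every member was at or below 0.393% of its OPC level, and in MOL at or below 0.458%. These highest values rose to 0.717% in MFOL1 with cells thinned to 2400 UMIs and to 0.751% in MOL with TMM factors (a scaling that allows for genes at very high levels). The members differed in COP/NFOL, where what was left of the OPC level ranged from 0.693% to 30.8% among TdTom+ cells and from 0 UMIs to 75.6% among GFP+ cells.

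**Figure D1:**
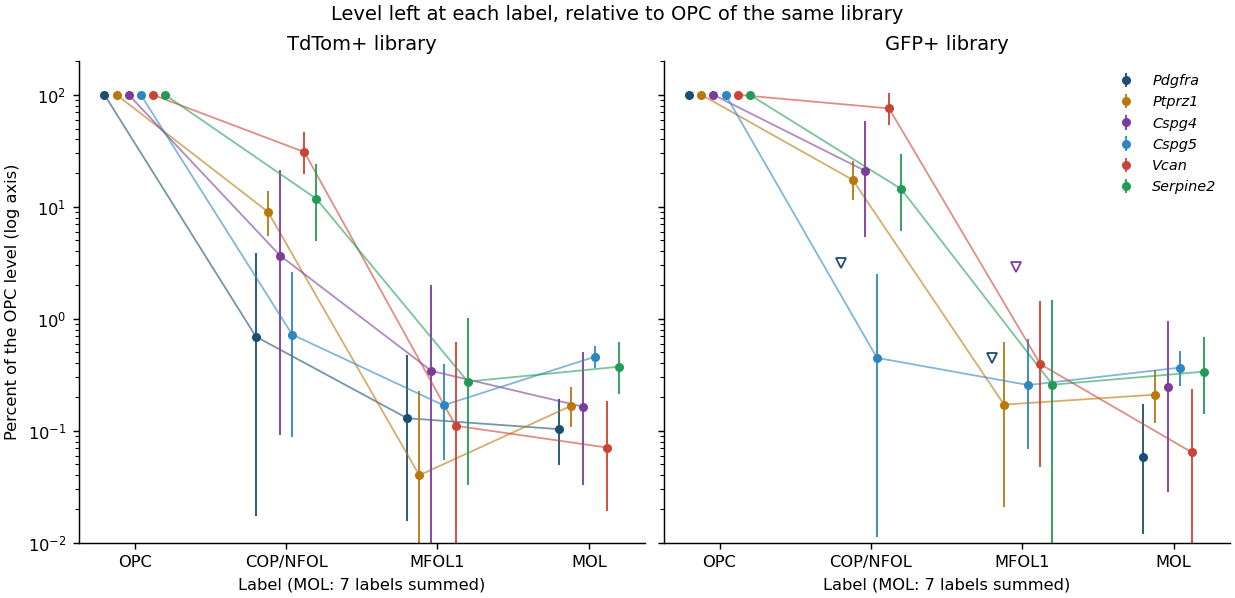
Level of each gene in COP/NFOL, MFOL1 and summed MOL cells as a percent of its OPC level, on a log axis, in the TdTom+ (left) and GFP+ (right) library. Points are values with 95% counting intervals (cut at the lower axis limit), and open triangles are upper limits of the interval where the gene had 0 UMIs. Vcan stood at 30.8% and 75.6% in COP/NFOL, and Pdgfra and Cspg5 at or below 0.723%, or 2.33% after thinning to 2400 UMIs.

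Counted over the members, 6 of 6 were at least 2-fold lower in TdTom+ COP/NFOL than in OPC and 5 of 6 in GFP+ COP/NFOL, Vcan being the exception, against 33.3% and 30.8% of the 3621 genes with at least 50 CPM in OPC of both libraries. At least 10-fold lower were 4 of 6 in the TdTom+ library (Pdgfra, Cspg5, Cspg4 and Ptprz1) and 2 of 6 in the GFP+ library (Pdgfra and Cspg5), against 9.94% and 9.47% of those genes. Among TdTom+ cells Ptprz1 was less than 10-fold lower, at 12.9% to 14.1% of OPC, by the mean of each cell's CPM, after thinning to 2400 UMIs and with cells of 200 to 3000 genes, and Cspg4 rests on 1 UMI with an upper limit of 21.3%. Serpine2 passed 10-fold in 2 alternatives. It was at 9.36% among GFP+ cells of 200 to 3000 genes, and at 9.89% among TdTom+ cells without the COP/NFOL cell with most of its UMIs. In MFOL1 and again in MOL all 6 were at least 10-fold lower in both libraries, against 12.5% and 13.4% of genes. The members had been picked as precursor genes with results of these data known, so these counts describe them and test nothing.

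The growth factor receptor gene Pdgfra had 291 UMIs (1877 CPM) in TdTom+ OPC and 213 UMIs (1929 CPM) in GFP+ OPC. In COP/NFOL it had 1 UMI in 11 TdTom+ cells (13.0 CPM), which is 0.693% of the OPC level with an interval of 0.0175% to 3.89%. It was 1.47% by the mean of each cell's CPM, 1.87% with cells of 200 to 3000 genes and 2.33% after thinning to 2400 UMIs. In the 8 GFP+ COP/NFOL cells it had 0 UMIs, and the upper limit of the interval was 3.12% of the OPC level. The single COP/NFOL cell with a Pdgfra UMI had 3076 UMIs in all and was also the only COP/NFOL cell with 5 of the members. Thus Pdgfra RNA had nearly gone in both libraries while the cells still held Ptprz1, Vcan and Serpine2 UMIs. In MFOL1 it had 2 UMIs in 175 TdTom+ cells and 0 in 99 GFP+ cells, and in MOL 10 UMIs in 1450 cells (1.94 CPM) and 3 in 730 cells (1.13 CPM).

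Cspg5, which encodes the membrane proteoglycan neuroglycan C, was the other gene nearly gone in COP/NFOL. It stood at 3599 CPM (558 UMIs) in TdTom+ OPC and 3614 CPM (399 UMIs) in GFP+ OPC. In COP/NFOL it had 2 UMIs (26.0 CPM) and 1 UMI (16.2 CPM), or 0.723% (0.0873% to 2.62%) and 0.448% (0.0113% to 2.51%) of the OPC level. After thinning to 2400 UMIs the TdTom+ value was 2.28%. No COP/NFOL cell had more than 1 Cspg5 UMI, whereas OPC had at least 2, with a median of 10 in each library and a maximum of 40 in TdTom+ cells and 28 in GFP+ cells. The OPC and COP/NFOL ranges did not overlap in either library, and the COP/NFOL cells were the deeper ones.

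Cspg4, the gene of NG2, was sparse even in OPC, with 55 UMIs (355 CPM) in TdTom+ and 34 UMIs (308 CPM) in GFP+ cells and a median of 1 UMI per cell in both. In COP/NFOL it had 1 UMI among TdTom+ cells and 4 UMIs among GFP+ cells, the latter in 4 of 8 cells. These come to 3.67% (0.0912% to 21.3%) and 21.0% (5.42% to 58.9%) of the OPC level, and the intervals overlap widely. At this depth a difference between the libraries was not detectable for Cspg4. In MFOL1 it had 1 and 0 UMIs and in MOL 3 and 2.

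Ptprz1, the receptor phosphatase with chondroitin sulfate chains, was retained in part. It had 470 UMIs (3031 CPM) in TdTom+ OPC and 298 UMIs (2699 CPM) in GFP+ OPC. In COP/NFOL 21 UMIs (273 CPM) and 29 UMIs (469 CPM) were counted, or 9.01% (5.52% to 13.9%) and 17.4% (11.4% to 25.5%) of the OPC level. A UMI was present in 7 of 11 TdTom+ and 8 of 8 GFP+ COP/NFOL cells, with a maximum of 6 and 9 UMIs per cell. Its COP/NFOL interval lay above those of Pdgfra and Cspg5 in both libraries. In MFOL1 it had 1 UMI (0.0400% of the OPC level) and 2 UMIs (0.171%).

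Serpine2, the protease inhibitor gene, lay close to Ptprz1 in what was left. It stood at 884 CPM (137 UMIs) in TdTom+ OPC and 897 CPM (99 UMIs) in GFP+ OPC, and at 104 CPM and 129 CPM in COP/NFOL, from 8 UMIs in each library. That is 11.8% (4.98% to 23.9%) and 14.4% (6.06% to 29.6%) of the OPC level, and these intervals overlap those of Ptprz1 and Cspg4 in both libraries. The GFP+ value was 9.36% with cells of 200 to 3000 genes and 21.7% after thinning to 2400 UMIs. In MFOL1 it had 2 and 1 UMIs and in MOL 17 (3.30 CPM) and 8 (3.02 CPM). Without cells with 3 or more astrocyte markers the TdTom+ MOL level fell from 0.373% to 0.184% of OPC. With TMM factors it rose to 0.612%, and the GFP+ level from 0.337% to 0.565%.

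Vcan, the gene of versican, was retained most in both libraries. It had 170 UMIs (1096 CPM) in TdTom+ OPC and 130 UMIs (1177 CPM) in GFP+ OPC. In COP/NFOL it had 26 UMIs (338 CPM) and 55 UMIs (890 CPM), which is 30.8% (19.6% to 46.8%) and 75.6% (54.1% to 104%) of the OPC level. The GFP+ interval includes the OPC level itself. In TdTom+ COP/NFOL cells Vcan ranged from 0 to 7 UMIs with a median of 2, and 8 of 11 cells had a UMI. In GFP+ COP/NFOL cells it ranged from 2 to 14 UMIs with a median of 6, and 8 of 8 cells had a UMI. The cells of the libraries overlapped in number of UMIs. Without the COP/NFOL cell with most Vcan UMIs the percents were 25.8 and 63.6, and with cells of 200 to 3000 genes, of which 6 and 4 are left, they were 19.6 and 107. The next step was steep, since MFOL1 had 1 and 2 Vcan UMIs (0.111% and 0.393% of the OPC level) and MOL 4 and 2 (0.0708% and 0.0642%).

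In order of what was left in COP/NFOL, the TdTom+ library gave Pdgfra, Cspg5, Cspg4, Ptprz1, Serpine2 and Vcan, and the GFP+ library Pdgfra, Cspg5, Serpine2, Ptprz1, Cspg4 and Vcan. The intervals of Pdgfra and Cspg5 overlapped in each library, as did those of Cspg4, Ptprz1 and Serpine2. The TdTom+ Cspg4 interval also overlapped those of Pdgfra and Cspg5, so its place in the order of that library cannot be told at this depth. The Vcan interval lay above that of Ptprz1 in both libraries, and overlapped those of Cspg4 and Serpine2 in the TdTom+ library and that of Cspg4 in the GFP+ library.

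**Figure D2:**
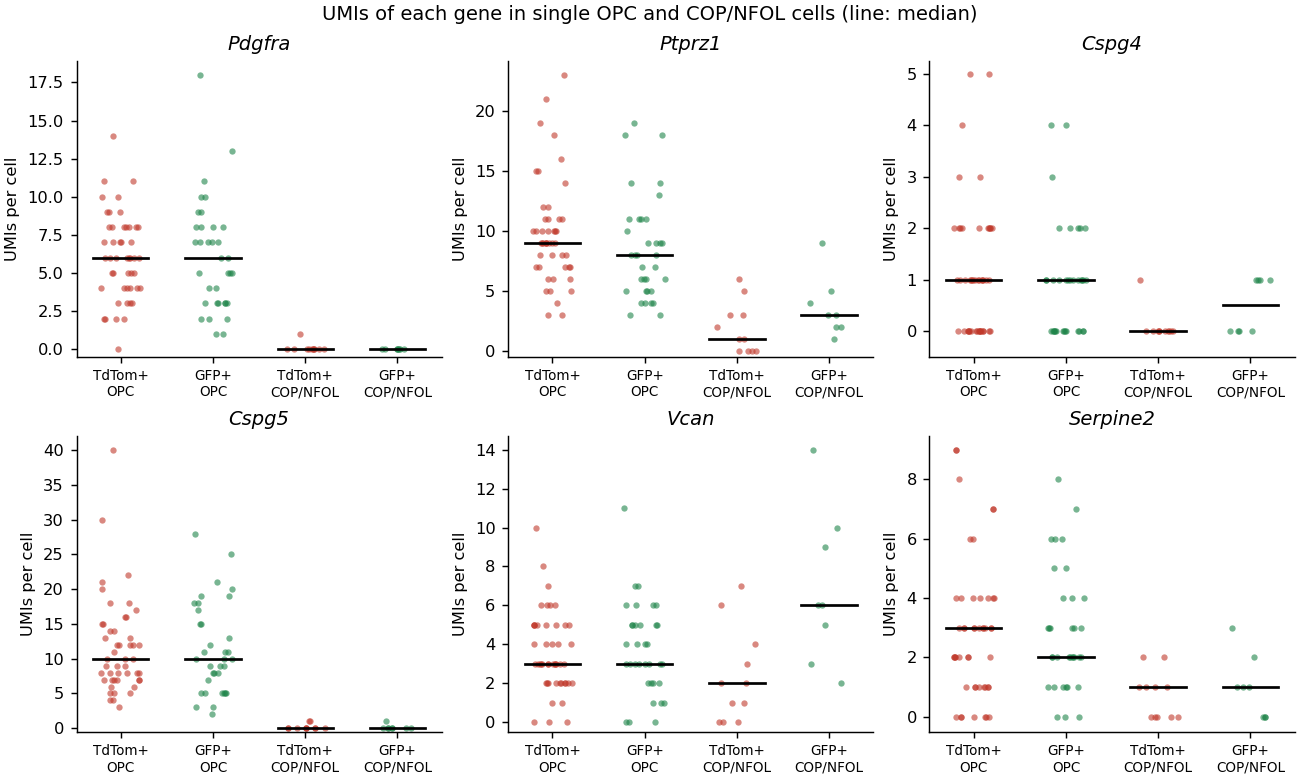
UMIs of each gene in single OPC and COP/NFOL cells of the TdTom+ (red) and GFP+ (green) library. Points are cells, not thinned to equal depth, and black lines are medians. The median Vcan count was 3 in OPC of both libraries and 2 and 6 in COP/NFOL, and the Pdgfra median went from 6 to 0 in both.

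The share of cells with a UMI depends on depth, so each cell was also thinned at random to 2400 UMIs, leaving out 7 TdTom+ and 5 GFP+ OPC and 1 TdTom+ COP/NFOL cell that were shallower. Pdgfra was then detected in 37 of 41 TdTom+ OPC (90.2%, 76.9% to 97.3%) and 30 of 30 GFP+ OPC, against 1 of 10 and 0 of 8 COP/NFOL cells. The exact upper limit of 0 of 8 is a share of 36.9% of cells with a UMI at this depth. Vcan was detected in 35 of 41 (85.4%) and 28 of 30 (93.3%) OPC, and in 5 of 10 and 8 of 8 COP/NFOL cells. Ptprz1 was detected in all 41 and 30 OPC and in 4 of 10 and 6 of 8 COP/NFOL cells. Serpine2 was detected in 34 of 41 and 26 of 30 OPC and in 2 of 10 and 4 of 8 COP/NFOL cells. Cspg5 was detected in 41 of 41 and 29 of 30 OPC and in 2 of 10 and 0 of 8 COP/NFOL cells, as many TdTom+ COP/NFOL cells as for Serpine2. Cspg4 was detected in 56.1% and 53.3% of OPC and in 0 of 10 and 1 of 8 COP/NFOL cells. In MOL the thinned shares ran from 0.0754% (Cspg4) to 3.62% (Cspg5) of 1327 TdTom+ cells and from 0 (Cspg4) to 2.54% (Cspg5) of 669 GFP+ cells, at a median depth before thinning close to that of OPC. Whether these MOL UMIs came from free RNA was not tested. Before thinning, Pdgfra was found in 47 of 48 and 35 of 35 OPC and in 0.690% and 0.411% of MOL cells.

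The members were found together in single cells. Over both libraries, all 83 OPC had UMIs of at least 4 of the 6 genes, with 45 cells holding 6, 27 holding 5 and 11 holding 4. All 19 COP/NFOL cells held at least 1, and 6 of them held 4 or more. Of 274 MFOL1 cells, 254 held none, 19 held 1 and 1 held 2. Of 2180 MOL cells, 2009 held none, 160 held 1, 10 held 2 and 1 held 3. Thinned to 2400 UMIs, 69 of 71 OPC and 1 of 18 COP/NFOL cells held 4 or more. In thinned OPC, Pdgfra and Ptprz1 were found in the same cell in 37 of 41 TdTom+ and 30 of 30 GFP+ cells, while Cspg4 and Serpine2 shared 20 of 41 and 14 of 30. Cspg4 was detected in only 23 and 16 of these cells, and Serpine2 in 34 and 26, which limits how many they can share. Whether pairs shared more cells than their single detection gives was not tested.

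**Figure D3:**
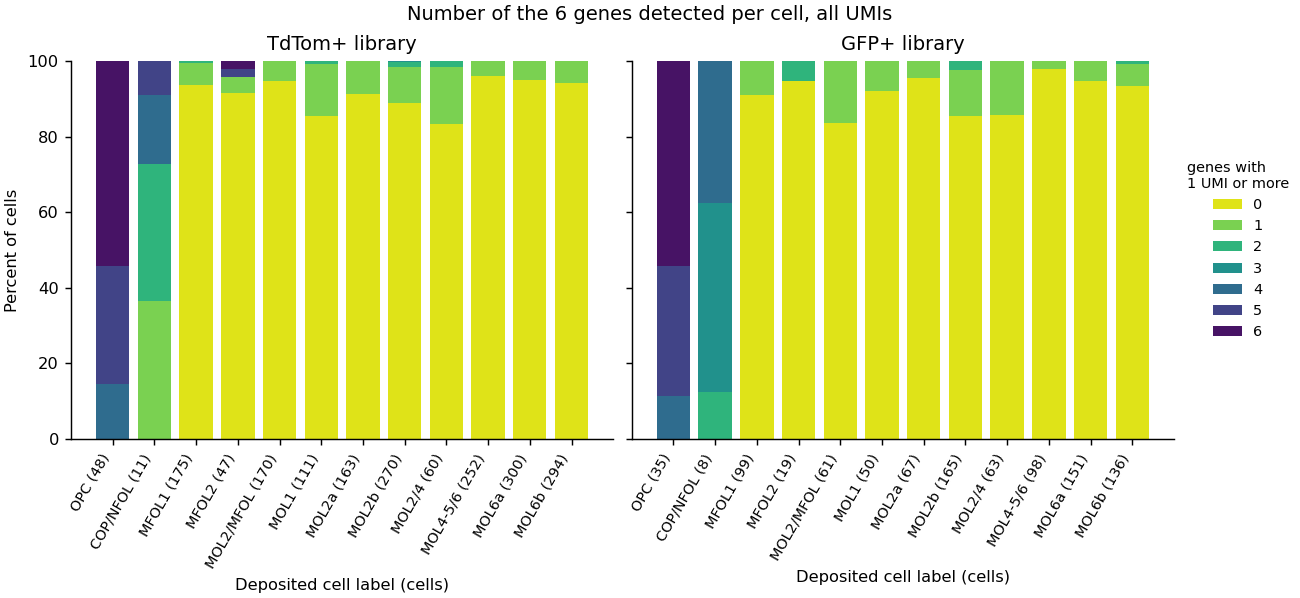
Percent of cells of each deposited label by how many of the 6 genes had at least 1 UMI, at full depth, for the TdTom+ (left) and GFP+ (right) library. Cell numbers stand beside the labels. OPC held 4 to 6 of the genes, COP/NFOL 1 to 5, at most 16.7% of the cells of any later label held 1 or more, and the only later cells with 4 or more were 2 TdTom+ MFOL2 cells with 5 and 6.

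In the TdTom+ library the MFOL2 label, a second myelin-forming label that is not on the path described above, held more of the members than MFOL1, with 11 Pdgfra, 22 Ptprz1 and 22 Cspg5 UMIs in 47 cells. Nearly all of these were in 2 cells. Those cells held 11 of the 11 Pdgfra UMIs, 22 of 22 for Ptprz1, 2 of 2 for Cspg4, 21 of 22 for Cspg5, 3 of 3 for Vcan and 5 of 7 for Serpine2. They had 7297 and 8020 UMIs in all, against a median of 2980 in the label, and summed MFOL markers at 39879 and 28554 CPM, where the rest of the label had a median of 39458 CPM. Their summed OPC markers stood at 2604 and 4239 CPM, where the rest had a median of 277 CPM, and they had 0 microglial UMIs. Without them, after seeing the data, Pdgfra, Ptprz1, Cspg4 and Vcan were at 0 UMIs in TdTom+ MFOL2, Cspg5 at 6.69 CPM and Serpine2 at 13.4 CPM. Whether each barcode held more than 1 cell was not tested. The 19 GFP+ MFOL2 cells had 1 UMI of Cspg5, 1 of Serpine2 and none of the others.

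**Figure D4:**
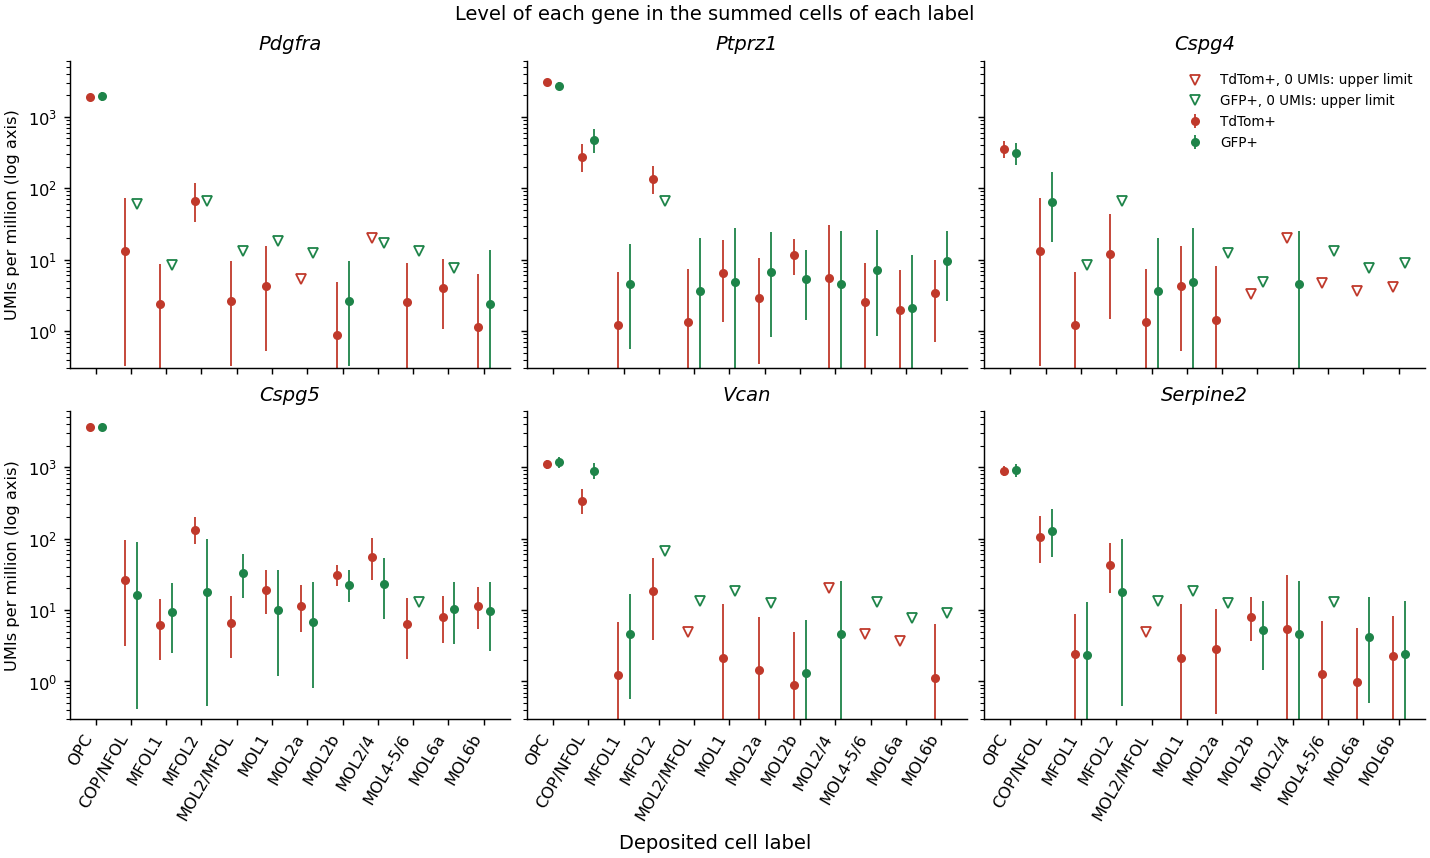
Level of each gene (CPM, log axis) in the 12 deposited labels, in the TdTom+ (red) and GFP+ (green) library. Points are sums over the cells of a label with exact Poisson 95% intervals (cut at the lower axis limit), and open triangles are upper limits where the gene had 0 UMIs. OPC led for every gene, although not for GFP+ Vcan with cells of 200 to 3000 genes, and the TdTom+ MFOL2 points of Pdgfra (66.8), Ptprz1 (134) and Cspg5 (134) rest on 2 cells.

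Within MOL a low residue was left, largest for Cspg5 at 16.5 CPM (85 UMIs in 68 TdTom+ cells) and 13.2 CPM (35 UMIs in 34 GFP+ cells), or 0.458% and 0.366% of its OPC level. In the TdTom+ library the MOL level was 272% of the MFOL1 level (112% to 858%), and in the GFP+ library 143% (51.2% to 554%), an interval that includes no change. Without cells with 3 or more astrocyte markers, TdTom+ MOL and MFOL1 stood at 0.374% and 0.173% of the OPC level. An interval for their ratio without those cells was not computed, and TdTom+ MFOL1 had 5 Cspg5 UMIs. Among the 7 MOL labels Cspg5 was highest in MOL2/4, at 54.8 CPM (26.3 to 101 CPM) among TdTom+ cells and 22.9 CPM among GFP+ cells, with MOL2b next at 31.0 and 22.4 CPM. It was lowest in MOL4-5/6, at 6.30 CPM and 0 UMIs. The intervals of MOL2/4 and MOL2b overlapped in both libraries.

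Astrocyte markers moved with part of this residue. The summed level of the 8 astrocyte markers in the matrix was 428 and 313 CPM in MOL2b, against 230 and 211 CPM over all MOL, and 15 TdTom+ and 9 GFP+ MOL2b cells had UMIs of at least 3 of them. Those 15 TdTom+ cells held 18 of the 35 Cspg5 UMIs of the label, and without them its level was 16.0 CPM. TdTom+ MOL1 stood at 19.5 CPM without such cells, so MOL2b was then no longer next after MOL2/4 in that library. The 9 GFP+ cells held 1 Cspg5 UMI, and without them the level was 22.5 CPM. In MOL2/4 the levels without such cells were 50.1 and 23.3 CPM. A single TdTom+ MOL2b cell with 7 astrocyte markers held 9 Cspg5 and 6 Serpine2 UMIs, out of 9 Serpine2 UMIs in that label. The 15 TdTom+ cells together held 8 of those 9 and 10 of the 13 Ptprz1 UMIs of the label.

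The astrocyte list also had UMIs in OPC, at 1019 and 960 CPM with 2 of 8 markers at 0 in each library, and 11 and 7 OPC had at least 3 of them. Without those cells Pdgfra stood at 1787 and 1854 CPM and Cspg5 at 3508 and 3594 CPM in OPC, so the OPC levels were nearly as high. Microglial markers were at 0 UMIs in OPC and COP/NFOL of both libraries.

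In OPC, no difference between the TdTom+ (dorsal origin) and GFP+ (ventral origin) library was detected for any member beyond counting error. On a log2 scale, with 1 CPM added to both levels, the difference TdTom+ minus GFP+ ran from -0.10 (Vcan, -0.44 to 0.24) to 0.20 (Cspg4, -0.44 to 0.87). The counting interval was narrowest for Cspg5, at -0.01 (-0.19 to 0.18), and Ptprz1 stood at 0.17 (-0.04 to 0.38). Between single OPC, however, Cspg5 varied most of the members, with a variance of 4.06 and 3.72 times its mean UMIs. The interval leaves that spread out. All 6 intervals included 0, and 0 of 6 members were 2-fold apart, against 3.62% of genes, so this count does not set the members apart. The median log2 ratio over those genes was -0.03. In COP/NFOL, Vcan was lower in the TdTom+ library by a log2 ratio of -1.39 (-2.13 to -0.70), and the intervals of the other 5 members included 0. At least 2-fold apart were 3 of 6 members (Pdgfra, Cspg4 and Vcan), against 33.1% of the same genes. Pdgfra had only 1 and 0 UMIs there and Cspg4 1 and 4, so of the 3 Vcan alone was apart beyond counting error. Markers of the stages moved with the Vcan difference. In these cells, TdTom+ first, summed COP/NFOL markers stood at 7334 and 11936 CPM, OPC markers at 1508 and 2264 CPM, and MFOL markers at 24537 and 14088 CPM. Their part in the Vcan difference was not tested. The difference rests on 11 and 8 cells of 1 library each, whose Vcan variance was 2.48 and 2.26 times the mean. The origin cannot be told apart from the library.

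Other genes of these pathways were read in OPC against MOL, from lists chosen by function. A gene counted as higher where its CPM was at least 2-fold higher in both libraries, among genes with at least 50 CPM in OPC or in MOL of both. Of the 4282 such genes other than the members, 28.7% were higher in OPC and 11.6% higher in MOL, with a median log2 ratio of OPC over MOL of 0.51. The counts of each list below are to be read beside these shares. The edgeR TMM factors of OPC and MOL differed by 0.71 (TdTom+) and 0.75 (GFP+) on the log2 scale, and scaling with them lowered the ratios by up to that much, less for genes of low level because of the 1 CPM added. This turned the split from 1231 higher in OPC and 497 higher in MOL to 588 and 972. The median log2 ratio was then -0.43, over the 4054 genes that still had 50 CPM. Of the 35 list genes named by the rule, Aplp2, Papss1, Htra1 and Timp2 changed sign with the TMM factors in at least 1 library.

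Of the PDGF list, 1 gene was measured well enough, the ligand gene Pdgfa, and it went the other way from its receptor. Pdgfa stood at 58.0 and 27.2 CPM in OPC (9 and 3 UMIs), 533 and 275 CPM in COP/NFOL, 170 and 127 CPM in MFOL1 and 371 and 390 CPM in MOL. COP/NFOL, where Pdgfra had 1 and 0 UMIs, was thus above OPC in Pdgfa in both libraries. Pdgfrb had 0 UMIs in OPC of either library.

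Among 8 further chondroitin sulfate proteoglycan core proteins, 4 were higher in OPC and 3 in MOL, with a median log2 ratio of 0.89. Bcan (brevican) stood at 735 and 878 CPM in OPC, 1118 and 760 CPM in COP/NFOL, and 1.21 and 2.31 CPM in MFOL1. Like Vcan it was still present in COP/NFOL and gone in MFOL1. Ncan (neurocan), at 297 and 426 CPM in OPC, had 0 and 1 UMIs in COP/NFOL. Its upper limits there were 16.8% and 22.2% of the OPC level, against 2.62% and 2.51% for Cspg5, so a loss as deep is not shown. App, the amyloid precursor gene, was higher in MOL, at 1088 and 1108 CPM against 129 and 199 CPM in OPC.

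Of 7 genes for chondroitin sulfate synthesis and sulfation, 5 were higher in OPC and 0 in MOL, with a median log2 ratio of 4.02. With TMM factors 5 genes were left at 50 CPM, 3 higher in OPC and 0 in MOL, with a median of 3.30. Xylt1, the xylosyltransferase that starts the chains, stood at 458 and 408 CPM in OPC, 26.0 and 129 CPM in COP/NFOL and 1.16 and 1.51 CPM in MOL. Chst11, a chondroitin 4-O-sulfotransferase, stood at 174 and 254 CPM in OPC and had 0 UMIs in COP/NFOL and MFOL1 of both libraries. Ugdh, which makes the sugar donor UDP-glucuronate, kept 23.9 and 24.6 CPM in MOL, from 374 and 444 CPM in OPC.

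Of 3 genes for hyaluronan, link proteins and tenascins, 2 were higher in OPC and 1 in MOL. Tnr (tenascin-R) stood at 916 and 860 CPM in OPC and at 1417 and 1731 CPM in COP/NFOL, with 2.43 and 6.93 CPM in MFOL1. The link protein genes parted, since Hapln1 stood at 64.5 and 145 CPM in OPC and 3 and 0 UMIs in MOL, whereas Hapln2, a link protein of nodes of Ranvier, stood at 25.8 and 9.06 CPM in OPC and 518 and 571 CPM in MOL.

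Of 11 ligands, partners and substrates of Ptprz1, 7 were higher in OPC and 2 in MOL, with a median log2 ratio of 1.20. The ligand gene Ptn (pleiotrophin) was not monotonic. It stood at 1445 and 1630 CPM in OPC, 39.0 and 80.9 CPM in COP/NFOL, 1314 and 1167 CPM in MFOL1 and 657 and 679 CPM in MOL. COP/NFOL, where Ptprz1 was partly retained, was the low point of Ptn in both libraries among these stages. The second ligand gene, Mdk (midkine), stood at 213 and 299 CPM in OPC and 1.36 and 0.756 CPM in MOL. Cntn1 (contactin-1) kept 377 and 146 CPM in COP/NFOL and 48.5 and 34.7 CPM in MFOL1, from 903 and 1069 CPM in OPC. Nfasc (neurofascin) was highest in COP/NFOL, at 3953 and 1504 CPM, against 77.4 and 81.5 CPM in OPC.

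Of 5 targets and partners of Serpine2 and the plasminogen system, 2 were higher in OPC and 2 in MOL, with a median log2 ratio of -0.22. With TMM factors 4 genes were left at 50 CPM, 1 higher in OPC and 2 in MOL, with a median of -3.56. Lrp1, the clearance receptor for serpin-protease complexes, stood at 709 and 788 CPM in OPC and 91.0 and 194 CPM in COP/NFOL. The serine protease gene Klk6 had 0 UMIs in OPC of both libraries and stood at 126 and 414 CPM in MOL, and Serpinb1a had 0 and 1 UMIs in OPC and stood at 141 and 189 CPM in MOL. Of 9 proteases and inhibitors that act on proteoglycans, 5 were higher in OPC and 1 in MOL. Adamts4, an aggrecanase that cleaves versican and brevican, had 1 and 0 UMIs in OPC and stood at 377 and 113 CPM in COP/NFOL and 194 and 141 CPM in MFOL1. Mmp15 and Mmp16, membrane-type metalloproteinases, stood at 232 and 190 CPM and at 400 and 335 CPM in OPC, and at 5.04 and 8.31 CPM and at 3.10 and 1.13 CPM in MOL.

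**Figure D5:**
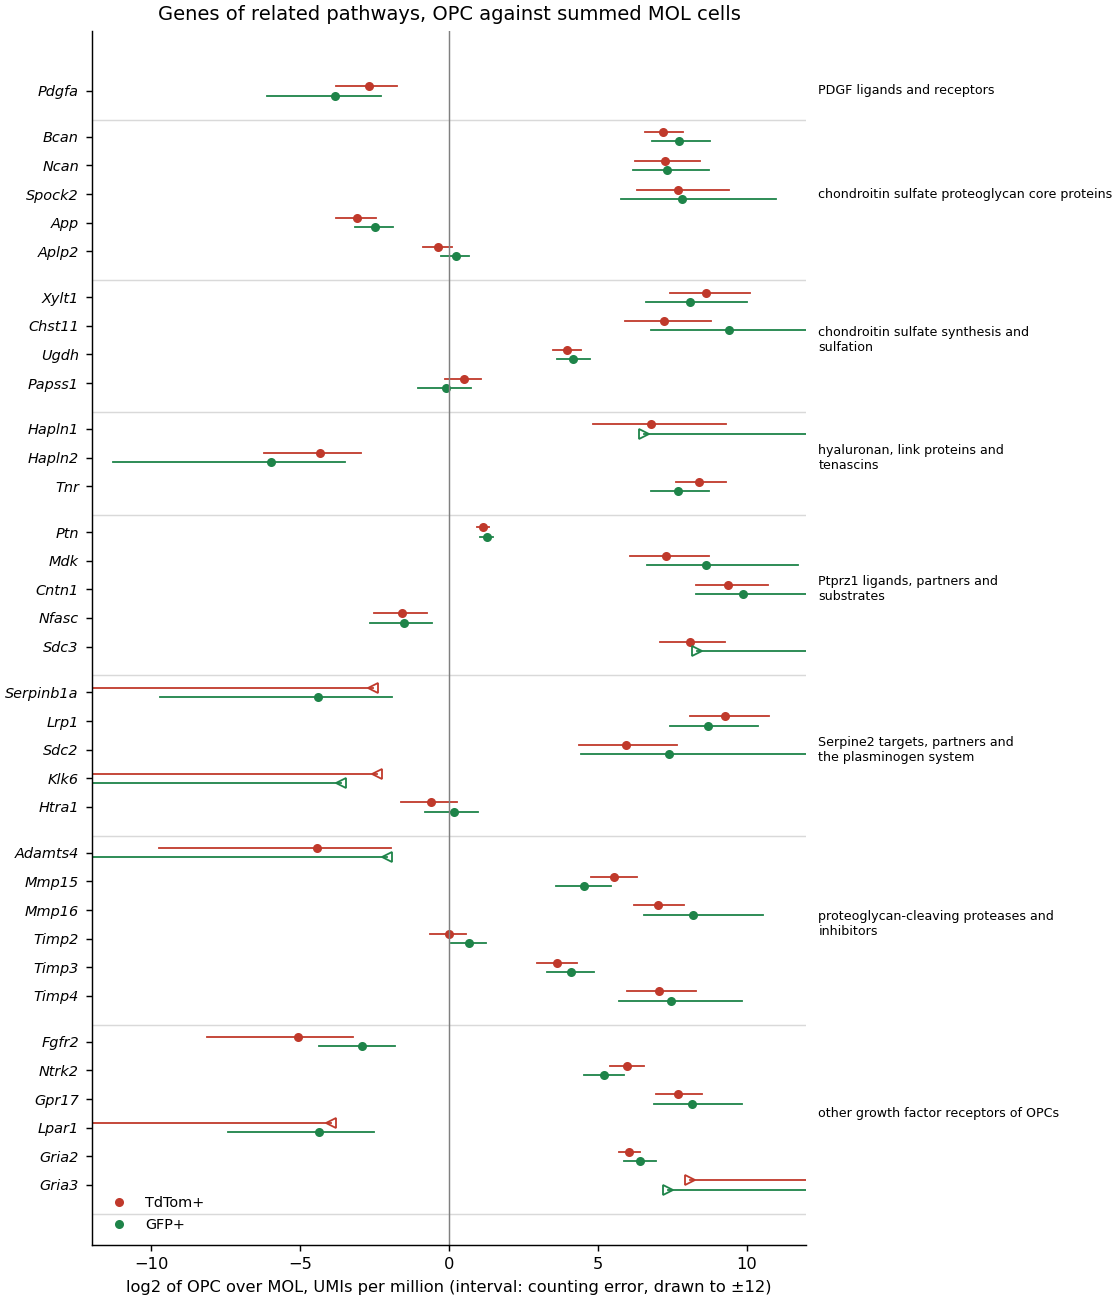
Log2 ratio of CPM in OPC over summed MOL cells for the genes named from the lists, in the TdTom+ (red) and GFP+ (green) library, with 95% counting intervals drawn to the axis limits. Open triangles mark the bound nearest 0 of the interval where 1 of the sums had 0 UMIs. Lists hold genes on both sides of 0, such as Bcan and App, or Hapln1 and Hapln2.

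The genes most like each member across the 24 sums (12 labels in 2 libraries) were found by Pearson's r of log2(CPM + 10) among 2917 genes. The sums share 2 libraries and their order from OPC on, so the r values are descriptions. For Pdgfra they included Ednrb, an endothelin receptor (0.991), and E130114P18Rik (0.990), and both had 0 UMIs in COP/NFOL of both libraries. For Cspg5 they were Gm3764 (0.968), Ednrb (0.965) and Unc13c (0.964). For Vcan they were Tmem176a, Sox6 and Csmd1 (each 0.995), and Sox6 stood at 400 and 471 CPM in OPC and 286 and 566 CPM in COP/NFOL. For Ptprz1 they were Basp1 (0.987), C1ql1 (0.986) and Lrp1 (0.985), for Serpine2 Tmem100 (0.982), Meg3 (0.977) and Lrp1 (0.977), and for Cspg4 Ppp1r14c (0.987), Ly6h (0.986) and Cacng4 (0.986). Among the members the highest r was between Ptprz1 and Serpine2 (0.975) and the lowest between Cspg5 and Vcan (0.733). This order did not hold with Spearman's correlation. The highest was then between Cspg5 and Serpine2 (0.704) and the lowest between Pdgfra and Cspg5 (0.283, against 0.959 by Pearson's r). Only 8 of the 18 choices were made again without MFOL2, and 1 of 18 with Spearman's correlation.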

How the data were processed

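Corpus callosum of 2 P60 mice was pooled, and its sorted TdTom+ and GFP+ cells gave 1 droplet library (10x Genomics) each. The submitters' processing notes name Cell Ranger 2.1.1 and mm10. The methods name STAR as aligner, with a version not given in the sources used here. Limits stated there for a cell are 200 to 3000 genes and less than 5% of UMIs from mitochondria, but some deposited cells lie outside that range of genes in the matrix. Doublet calling was not run here.

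The matrix deposited by the authors holds a signal, each gene's part of all UMIs of a cell. Division by a cell's smallest nonzero value gave whole UMI counts (100% of nonzero values, tolerance 0.01), and these recovered counts were used in place of the deposited counts that had been planned for. From the table of cells the library and label were read, and 37 other columns were not used. The TdTom+ library held 7129294 UMIs (median 3340 per cell) and the GFP+ library 3584940 (median 3307).

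UMIs were summed per label and library and given as CPM. Sums have exact Poisson intervals, shares exact Clopper-Pearson intervals and ratios exact conditional intervals, all at 95% and for counting error only. Cells were thinned without replacement (random seed 1). Genes named are the 6 members, from each list up to 4 genes highest in OPC and up to 2 highest in MOL, among those at 50 CPM or more there, and for each member the 3 other genes of highest r, among genes with at least 100 CPM in 1 label of both libraries, of which 1 is not reported here. Pdgfrb, the cells with several members outside OPC, and Sox6 and Neu4 among the markers were named after their values were seen. The members and lists were chosen with earlier results of these data known. Of the fibroblast and mural markers listed, only Pdgfrb is a row of the matrix. The alternatives were other scalings, thinning depths, cell filters and thresholds. Scripts were tested on simulated data. Used were R 4.3.3 with edgeR 4.0.16 (TMM factors only) and, in Python 3.11.15, scipy 1.17.1, numpy 2.4.6, pandas 2.3.3 and matplotlib 3.10.9. Promoter sequences and starts are from RefSeq (GRCm38.p6) and gene positions from GENCODE vM21.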

Additional observations from a re-analysis of the deposited data

How the results depend on the processing

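No paired analysis was possible because each origin had a single library and no result came from a test. A value was counted as moved where it left the counting interval of the reported one. Of 204 recomputed percents of the OPC level, 184 stayed inside, and no alternative gave any member a level above OPC except Vcan in GFP+ COP/NFOL, at 107% with cells of 200 to 3000 genes. That limit keeps 6 and 4 of the COP/NFOL cells, gave 14.1% for TdTom+ Ptprz1 there, and 0 for TdTom+ Cspg4 and GFP+ Cspg5 there and for TdTom+ Vcan in MFOL1. Other COP/NFOL percents moved by over 1.5 times inside their intervals. With that limit TdTom+ Pdgfra was at 1.87%, TdTom+ Vcan at 19.6% and GFP+ Serpine2 at 9.36%, thinned to 2400 UMIs TdTom+ Pdgfra was at 2.33%, TdTom+ Cspg5 at 2.28% and GFP+ Serpine2 at 21.7%, by the mean of each cell's CPM TdTom+ Pdgfra was at 1.47%, Cspg5 at 1.10% and Ptprz1 at 13.7%, and without the cell with most Cspg5 UMIs TdTom+ Cspg5 was at 0.405%. Thinning to 2400 UMIs gave 0 for Ptprz1 of both libraries and TdTom+ Pdgfra in MFOL1, TdTom+ Cspg4 and GFP+ Cspg5 in COP/NFOL, and GFP+ Cspg4 in MOL, where 1 or 2 UMIs had been counted. TMM factors raised MOL percents to 0.273% and 0.352% for Ptprz1 and 0.751% and 0.614% for Cspg5. Without cells with 3 astrocyte markers, TdTom+ MOL percents were 0.104% for Ptprz1 and 0.184% for Serpine2. Without the COP/NFOL cell with most UMIs of the gene, chosen after seeing the data, TdTom+ Pdgfra and Cspg4 and GFP+ Cspg5 were at 0. All 24 alternatives of the OPC ratios between libraries stayed within their intervals. Thinned to 1000 UMIs, the median share of cells over the members was 69.8% and 77.1% in OPC and 0% in GFP+ COP/NFOL, and at 2 UMIs or more it was 0% in MOL of both libraries and in GFP+ COP/NFOL. With at least 20 CPM, 2074 of all genes and 11 chondroitin sulfate synthesis genes were higher in OPC. With a fold of 4, 664 genes were higher in OPC and 263 in MOL, and 0 Ptprz1 partners in MOL. With TMM factors, 588 were higher in OPC and 972 in MOL, and in OPC 3 synthesis genes, 1 hyaluronan and tenascin gene and 1 Serpine2 partner. Of 18 likeness choices, 8 were made again without MFOL2 and 1 with Spearman's correlation. The 11 and 8 COP/NFOL cells limit every statement on that label, and in MFOL1 each member rests on 0 to 5 UMIs.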

Other observations

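Receptor genes of OPCs other than Pdgfra, from a list that also holds Gpr17 and glutamate receptor subunits, were read in the same way. Of the 10 with at least 50 CPM, 6 were higher in OPC and 2 in MOL, with a median log2 ratio of OPC over MOL of 3.43, beside 28.7% and 11.6% of all genes. Ntrk2, the receptor gene for BDNF, stood at 509 and 471 CPM in OPC of the TdTom+ and GFP+ library, 104 and 97.0 CPM in COP/NFOL and 8.14 and 12.8 CPM in MOL. The AMPA receptor subunit gene Gria2 stood at 1303 and 1250 CPM in OPC and 715 and 970 CPM in COP/NFOL, and the related Gria3 at 206 and 245 CPM in OPC and 39.0 and 162 CPM in COP/NFOL, with 1 and 0 UMIs in MFOL1 and 0 UMIs in MOL of both libraries.

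Gpr17, a receptor gene of committed precursors, stood at 716 and 543 CPM in OPC and at 1222 and 3542 CPM in COP/NFOL, in 11 and 8 cells. It is also 1 of the 8 COP/NFOL markers, whose summed level was higher in the GFP+ COP/NFOL cells. Fgfr2 and Lpar1, receptors for fibroblast growth factors and lysophosphatidic acid, were the 2 genes higher in MOL, with 2 and 6 UMIs of Fgfr2 and 0 and 2 UMIs of Lpar1 in OPC, against 435 and 413 CPM and 372 and 375 CPM in MOL.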
